A study of Danio rerio with 12 samples.

Results

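Iron and haem handling genes were followed across ventricles of wild-type and mvp mutant zebrafish after sham surgery or at 7dpa, 7 days after resection of the ventricular apex. A list of 10 symbols was matched to the genes of the count tables, and 9 of them matched 10 of the 32520 genes listed, because hpx matched both copies, hpxa (ENSDARG00000012609) and hpxb (ENSDARG00000051912). The other genes were hmox1a (ENSDARG00000027529), fth1a (ENSDARG00000015551), fthl27 (ENSDARG00000031776), slc40a1 (ENSDARG00000000241), slc11a2 (ENSDARG00000024295), hp (ENSDARG00000051890), hamp (ENSDARG00000102175) and tfa (ENSDARG00000016771). The table of gene names held a single HMOX1 gene, which RefSeq lists as hmox1a, so hmox1b was not analysed here. The ventricle that remained below the plane of surgery was taken for RNA-seq, with 3 libraries for each of 4 groups of adult fish, namely WT sham, WT 7dpa, mvp sham and mvp 7dpa. The mvp mutant fish were homozygous (mvp-/-) for a single CRISPR-Cas9 allele that deletes the whole coding region of mvp, the gene of the major vault protein, in every cell of an AB-derived fish, and fish were anaesthetised with Tricaine for surgery. The methods name 9 hearts, wild-type and mutant, as the source of the RNA. Whether this number is a total or one per genotype or group is not said. The ages of the fish and the number of hearts behind each library are not given in the sources used here. The sample labels give a day only for the 7dpa groups and none for the sham groups. Time since surgery may therefore differ between sham and 7dpa hearts, or between the sham groups. A general statement of the study calls its replicates biological, but whether each library came from separate animals or pools is not given, so p-values measure the spread between these libraries.

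Resection of the ventricle leaves a blood clot, and macrophages take up dying red cells there. Haem oxygenase 1 (hmox1a) breaks haem into biliverdin, carbon monoxide and iron. Ferritin (fth1a and the heavy-chain-like copy fthl27) stores the iron, ferroportin (slc40a1) is the only known exporter of iron from vertebrate cells, and slc11a2 (DMT1) brings iron in across the plasma or endosomal membrane. Hepcidin (hamp) is a peptide hormone, made mainly by the liver and raised by iron and inflammation, that binds ferroportin and has it degraded. In plasma, transferrin (tfa) carries iron, haptoglobin (hp) binds free haemoglobin and haemopexin (hpxa and hpxb) binds free haem.

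The libraries held 21356163 to 26684651 counts in genes, with a median of 22223910.5. Levels are given as CPM, the counts of a gene relative to the total of its library after TMM scaling, and 3 counts came to between 0.0955 and 0.161 CPM. As a check of the labels, mvp itself had 3346 to 5405 counts in wild-type libraries, 91 to 108 in mvp sham and 429 to 475 in mvp 7dpa libraries. The mutant libraries were thus low but not at 0 for a gene described as wholly deleted, with means of 5.02 and 17.99 CPM beside 184.6 and 154 CPM in wild type, and where in the gene these reads lie was not tested. WT 7dpa replicate 1 stood apart from replicates 2 and 3, since its mean chi-square of counts per gene against them was 92.9 and 95.5, whereas all other replicate pairs gave 2.20 to 10.8. The estimated variation between replicates was accordingly 26.6% in WT 7dpa and 4.77% to 7.85% in the other groups. Values without that library are given wherever it decided the call of a member. The 10 cardiomyocyte marker genes summed to between 35842 and 53806 CPM in every library.

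Wild-type ventricles at 7dpa held more mRNA of tfa, hmox1a, fthl27 and hamp and less of slc40a1 and slc11a2 than after sham surgery. In the mutant, tfa, hmox1a and hamp were also higher at 7dpa and slc11a2 was lower, but slc40a1 did not pass the test. The log2 fold changes of hmox1a and tfa were smaller than in wild type. The tfa level at 7dpa was nevertheless higher in the mutant, at a mean of 287 CPM beside 233 CPM in wild type. That tfa difference and the hmox1a rise in the mutant were the less secure results. Each failed the test once certain single libraries were dropped or the model was altered, as detailed below. The 2 genotypes differed without resection too, in that mvp sham ventricles held 5.90-fold less slc40a1 mRNA and more tfa, fthl27 and hmox1a mRNA than WT sham ventricles. Of the 10 genes, 7 had enough counts to be tested, hamp only through its 7dpa groups, and hp, hpxa and hpxb did not.

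Leaving hamp aside, since it could be tested only through the groups in which it is high, 5 of the other 6 genes passed an adjusted p of 0.05 in the wild-type response to injury, 3 of them higher and 2 lower (edgeR quasi-likelihood test, Benjamini-Hochberg over 16604 genes). The background there was wide, as 59.4% of all tested genes passed, 31.6% higher and 27.8% lower, and the median log2 fold change was 0.31 over the 6 genes beside 0.01 over all genes. In the mvp response, 3 of the 6 passed, 2 higher and 1 lower, against 26.3% of all genes (12.9% higher and 13.4% lower), with medians of 0.20 and 0.02. Between mvp sham and WT sham, 4 of the 6 passed, 3 higher in the mutant and 1 lower, against 49.5% of all genes (25.3% higher and 24.2% lower), with medians of 0.29 and -0.00417. At 7dpa, 3 of the 6 passed between the genotypes, 1 higher and 2 lower in the mutant, against 19.5% of all genes (8.94% higher and 10.6% lower), with medians of 0.12 and -0.02. The difference between the injury responses of the genotypes passed for 3 of the 6, 1 with a higher and 2 with a lower response in the mutant, against 35.0% of all genes (15.2% higher and 19.9% lower), with medians of -0.18 and -0.03. Without WT 7dpa replicate 1 the 6 genes gave 6, 4, 5, 4 and 6 calls in these 5 comparisons in turn, beside 67.0%, 41.2%, 59.2%, 34.9% and 49.9% of all genes. The comparisons share libraries with each other, so they are not independent counts.

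**Figure D1:**
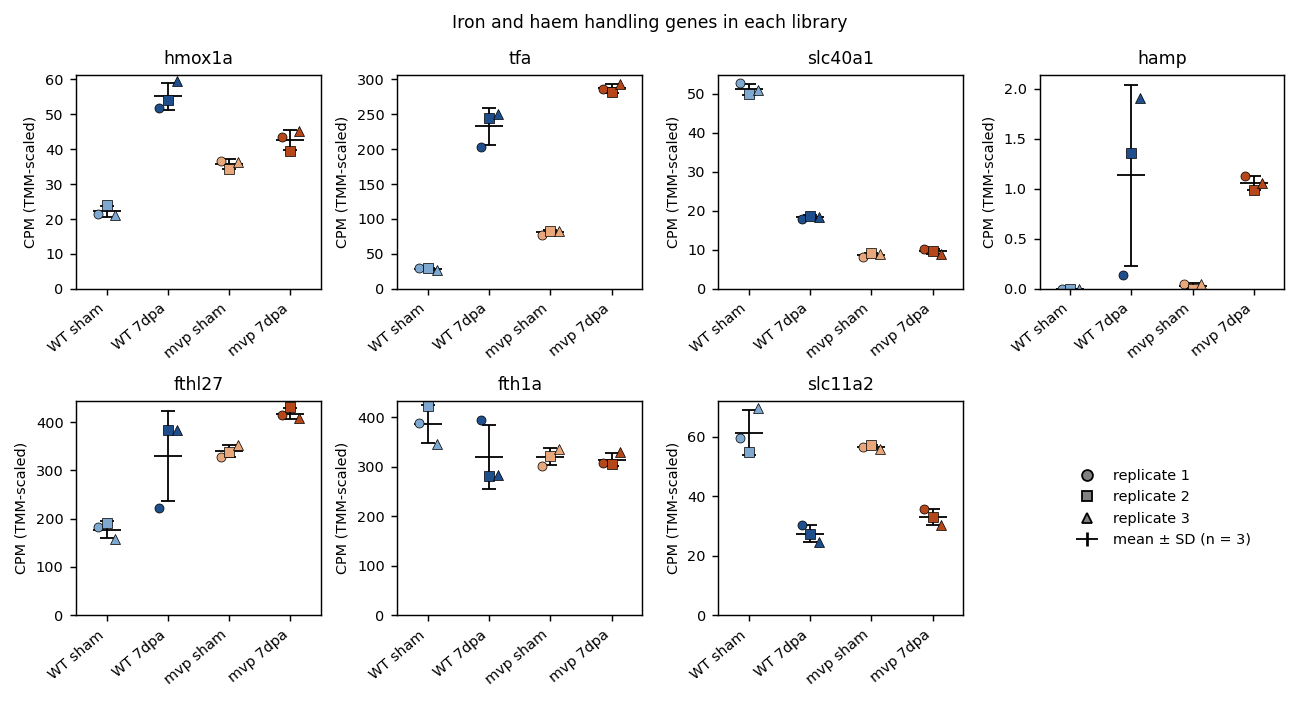
Level of each of the 7 tested genes in CPM after TMM scaling in every library, by group, each panel with its own axis from 0. Circles, squares and triangles are replicates 1, 2 and 3, and bars give the mean and SD over 3 libraries. The slc40a1 panel falls from 49.9 to 52.7 CPM in WT sham to at most 18.8 CPM in any other library, and WT 7dpa replicate 1 lies away from its group in fthl27, fth1a and hamp.

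Haem breakdown was represented by hmox1a. Its level was 21.3, 24.1 and 21.1 CPM in the WT sham libraries and 51.9, 54.1 and 59.5 CPM in the WT 7dpa libraries. It was 36.8, 34.3 and 36.3 CPM in mvp sham and 43.5, 39.4 and 45.1 CPM in mvp 7dpa. No library of any group overlapped with the next group in the order WT sham, mvp sham, mvp 7dpa and WT 7dpa. The mean rose from 22.2 ± 1.65 to 55.1 ± 3.89 CPM in wild type (SD, n = 3 libraries), a log2 fold change of 1.31 ± 0.08 (SE, edgeR adjusted p = 3.73e-08). In the mutant it rose from 35.8 ± 1.31 to 42.7 ± 2.97 CPM, a log2 fold change of 0.25 ± 0.08 (edgeR adjusted p = 0.0341). That smaller rise no longer passed in 5 of the 12 fits that each left out 1 library, which were those without any 1 of the mvp sham libraries (edgeR adjusted p = 0.0677, 0.130 and 0.0817) and without mvp 7dpa replicate 1 (0.113) or replicate 3 (0.141). The 2 responses differed by -1.06 ± 0.12 on the log2 scale (edgeR adjusted p = 1.74e-05). The mutant level was higher after sham surgery, by 0.69 ± 0.08 (edgeR adjusted p = 1.75e-05), and lower at 7dpa, by 0.37 on the log2 scale with an SE of 0.08 (edgeR adjusted p = 0.00634). In RNA of whole ventricles, fewer cells of a type and less RNA per cell cannot be told apart, and this holds for every gene below.

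Macrophages are the main cells known to take up red cells and to express hmox1 in vertebrates, and their markers had group means in the same order as hmox1a. This order of means was not particular to them, as the summed markers of neutrophils and of the epicardium and fibroblasts, given below, had it too. For the epicardium and fibroblasts, the order of the 7dpa groups rested on WT 7dpa replicate 1, at 3613 CPM. Replicates 2 and 3, at 2287 and 2218 CPM, lay below the mvp 7dpa libraries, at 2480 to 2582 CPM. The neutrophil sums held 3 genes, of which 2 were at or under 3 counts in every mvp sham library. The 19 macrophage marker genes, among them mpeg1, mfap4 and c1q copies, summed to 260 to 282 CPM in WT sham, 579 to 614 CPM in mvp sham, 1032 to 1072 CPM in mvp 7dpa and 1045 to 1841 CPM in WT 7dpa. Of the 14 that were tested, 14 were higher at 7dpa in wild type and 8 in the mutant, 8 were higher and 1 lower in mvp sham than in WT sham, and 10 had a smaller response in the mutant than in wild type. In WT 7dpa, replicate 1 had the lowest macrophage sum, 1045 CPM against 1838 and 1841 CPM, which lay within the range of mvp 7dpa. Its hmox1a level was 0.914 times the mean of the other 2 libraries. The part of macrophage number in the hmox1a values was not tested.

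Red cell markers did not follow the same order. The 9 erythrocyte marker genes summed to 377 to 440 CPM in WT sham, 612 to 633 CPM in mvp sham and 1161 to 1252 CPM in mvp 7dpa. In WT 7dpa, replicates 2 and 3 summed to 374 and 385 CPM, within the range of WT sham or just below it, and replicate 1 to 938 CPM. Of the 8 that were tested, 3 were higher and 3 lower at 7dpa in wild type, and 4 higher and 1 lower in the mutant. Between genotypes, 4 were higher and 0 lower in mvp sham than in WT sham, and 6 higher and 0 lower in mvp 7dpa than in WT 7dpa. The haemoglobin genes hbba1 and hbba2 had no match, so the sums leave them out. The part of red cell content in the results of the iron and haem genes was not tested.

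**Figure D2:**
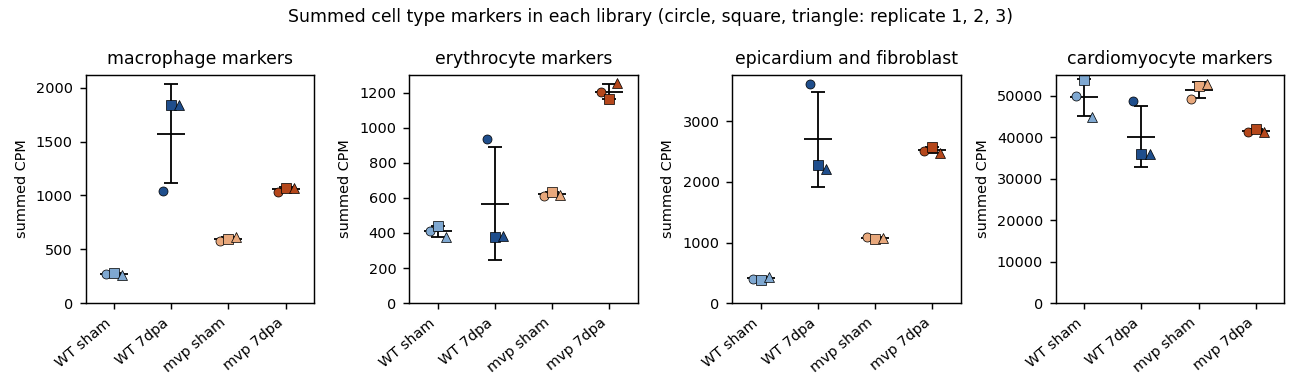
Summed CPM of the macrophage, erythrocyte, epicardium and fibroblast, and cardiomyocyte marker genes in every library, by group, with mean and SD over 3 libraries and each axis from 0. Macrophage sums run from 260 to 282 CPM in WT sham up to 1841 CPM in WT 7dpa, and WT 7dpa replicate 1 lies below its group in macrophage markers and above it in the other panels.

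Iron storage was represented by a pair of heavy-chain ferritin genes, of which fthl27 passed in the wild-type response and between the sham groups and fth1a in no comparison. Reads shared with other ferritin copies, as set out below, may affect both genes, which was not tested. fthl27 was at 183, 191 and 158 CPM in WT sham and at 223, 384 and 384 CPM in WT 7dpa. It was at 329, 339 and 353 CPM in mvp sham and at 414, 431 and 409 CPM in mvp 7dpa. All WT sham libraries lay below all others, whereas WT 7dpa and mvp sham overlapped because of WT 7dpa replicate 1. In wild type the mean rose 1.86-fold, from 177 ± 16.8 to 330.3 ± 93.1 CPM (SD, n = 3), with a log2 fold change of 0.90 ± 0.16 (edgeR adjusted p = 0.000321). Sham-operated mutants had 1.92 times the mean of sham-operated wild type (log2 difference 0.94 ± 0.16, edgeR adjusted p = 0.000295). The values for the response in the mutant, from 340.4 ± 12.4 to 418 ± 11.3 CPM, did not overlap, but the log2 fold change of 0.30 ± 0.16 missed the threshold in a fit whose spread included WT 7dpa replicate 1 (edgeR adjusted p = 0.189). Without that library it passed, with an adjusted p of 0.000144, as it did in a fit of only the mutant groups (2.38e-06). The difference between the responses, -0.60 ± 0.22, likewise missed it (edgeR adjusted p = 0.0513) and passed without that library, at -0.83 (edgeR adjusted p = 7.98e-09).

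The levels of fth1a, the canonical ferritin heavy chain, were 389, 424 and 347 CPM in WT sham and 395, 281 and 284 CPM in WT 7dpa. In the mutant they were 302, 321 and 337 CPM after sham surgery and 308, 305 and 330.1 CPM at 7dpa. Apart from WT sham, whose libraries lay above all mutant libraries, the groups overlapped. The wild-type log2 fold change of -0.27 ± 0.12 (edgeR adjusted p = 0.0631) became -0.44 and passed without WT 7dpa replicate 1 (edgeR adjusted p = 3.05e-06) or WT sham replicate 3 (0.0386), but turned to 0.11 when libraries were scaled by their totals alone (edgeR adjusted p = 0.321). In the mutant the log2 fold change was -0.03 ± 0.12 (edgeR adjusted p = 0.902), which that scaling turned to 0.25. Between mvp sham and WT sham it was -0.27 (edgeR adjusted p = 0.0743), and this passed without WT 7dpa replicate 1, 2 or 3 (edgeR adjusted p = 0.000278, 0.0459 and 0.0489). The difference between the responses, 0.25 ± 0.17 (edgeR adjusted p = 0.275), was 0.41 without it (edgeR adjusted p = 0.000479).

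The iron exporter slc40a1 had the largest difference between sham-operated genotypes of the 6 well-detected genes. WT sham libraries held 52.7, 49.9 and 50.9 CPM and WT 7dpa libraries 17.8, 18.8 and 18.5 CPM. The mvp sham libraries held 8.05, 9.14 and 8.83 CPM and the mvp 7dpa libraries 10.3, 9.61 and 8.91 CPM. The mutant groups overlapped with each other and lay below both wild-type groups, which were separate. In wild type slc40a1 fell 2.79-fold after injury, from 51.2 ± 1.39 to 18.4 ± 0.484 CPM (SD, n = 3), a log2 fold change of -1.48 ± 0.08 (edgeR adjusted p = 6.58e-09). In the mutant the means were 8.68 ± 0.562 and 9.60 ± 0.679 CPM, a log2 fold change of 0.15 ± 0.08 (edgeR adjusted p = 0.224), and the responses differed by 1.62 ± 0.11 (edgeR adjusted p = 3.05e-07). The mutant level was lower than wild type by a log2 difference of -2.56 ± 0.08 after sham surgery (edgeR adjusted p = 6.37e-11). At 7dpa it was lower by -0.94 ± 0.08, or 1.91-fold (edgeR adjusted p = 5.94e-06). WT 7dpa replicate 1 was at 0.957 times the mean of the other 2 libraries. The lowest macrophage sums and the highest slc40a1 levels were both in WT sham, and the 2 mutant groups differed in macrophage sums but overlapped in slc40a1. The part of macrophage number in the slc40a1 values was not tested.

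The importer slc11a2 was lower at 7dpa in both genotypes. Its levels were 59.6, 54.8 and 69.8 CPM in WT sham against 30.3, 27.3 and 24.5 CPM in WT 7dpa. They were 56.7, 57.2 and 56.0 CPM in mvp sham against 35.6, 32.9 and 30.3 CPM in mvp 7dpa. All sham libraries lay above all 7dpa libraries, and the genotypes overlapped within each surgery. The decrease was 2.24-fold in wild type, with a log2 fold change of -1.17 ± 0.10 (edgeR adjusted p = 7.01e-07), and 1.72-fold in the mutant, with -0.78 ± 0.10 (edgeR adjusted p = 0.00012). The difference between the 2 responses was 0.38 ± 0.14 (edgeR adjusted p = 0.0518). It passed without WT 7dpa replicate 1, at 0.45 (edgeR adjusted p = 0.00236), without WT sham replicate 2 (0.0284) and without mvp 7dpa replicate 3 (0.0434). Without WT 7dpa replicate 1 the difference between genotypes at 7dpa moved from 0.27 (edgeR adjusted p = 0.0827) to 0.33 (edgeR adjusted p = 0.00544). Cardiomyocyte markers summed to 44946 to 53806 CPM in WT sham and 49146 to 52692 CPM in mvp sham, and to 35842 to 48677 CPM and 41163 to 42037 CPM in the respective 7dpa groups. Of the 9 cardiomyocyte markers that were tested, 3 were higher and 5 lower at 7dpa in wild type, and 1 higher and 4 lower in the mutant. The part of cardiomyocytes in the slc11a2 values was not tested.

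Hepcidin transcripts were scarce and came almost only from injured hearts. The WT sham libraries held 0, 0 and 0 counts of hamp and the mvp sham libraries 1, 0 and 1. At 7dpa there were 4, 34 and 60 counts in wild type and 29, 24 and 26 in the mutant. Every 7dpa library thus exceeded every sham library, and WT 7dpa replicate 1 had the fewest counts among the injured hearts. With 3 counts per library taken as the floor for the sham groups, the mean of wild-type libraries at 7dpa was at least 7.62-fold higher, and for the mutant the bound was 7.15-fold. In wild type this bound was 5.03 without replicate 3, 6.87 without replicate 2 and 10.96 without replicate 1, whose level of 0.14 CPM lay under the mean floor of 0.149 CPM, while in the mutant it stayed between 6.93 and 7.39. Both responses were called by edgeR (adjusted p = 0.00103 and 0.00743), but a gene that enters the test only through the groups in which it is high had to differ, so these values add no support. The gene was too scarce to be tested in a fit of the wild-type groups alone. At 7dpa, hamp was at 1.14 ± 0.906 CPM in wild type and 1.06 ± 0.0670 CPM in the mutant (SD, n = 3), and a difference between genotypes was not detectable at this depth and spread (edgeR adjusted p = 0.924). Neither was one between the responses (edgeR adjusted p = 0.449).

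The liver is the main source of hepcidin, transferrin, haptoglobin and haemopexin in vertebrates, so liver markers were read in the same libraries. Of 12 hepatocyte markers, the 11 other than rbp4 had at most 25 counts in any library and summed to 1.04 to 2.13 CPM. Among them serpina1 and serpina1l were at 0 counts in all 12 libraries, and fgb, fgg and fetub at no more than 3. The retinol carrier gene rbp4, which had 2022 to 4912 counts, is not specific to liver. The haptoglobin and haemopexin genes were likewise near 0. hp had 1, 1 and 2 counts in WT sham, 0, 2 and 0 in WT 7dpa, 0, 1 and 1 in mvp sham, and 3, 0 and 1 in mvp 7dpa. hpxa had 3 counts in 1 WT 7dpa library, 1 count in 1 mvp 7dpa library and 0 in the other 10. hpxb had 6, 6 and 1 counts in mvp sham, 1, 1 and 4 in mvp 7dpa, 1, 0 and 0 in WT 7dpa and 0 in each WT sham library. These 3 genes did not pass the filter on low counts. Without that filter, hpxb was called higher in mvp sham than in WT sham (edgeR adjusted p = 0.0139), on 13 counts in all, and none of the other comparisons of these 3 genes passed (edgeR adjusted p of 0.31 to 1).

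Unlike the haptoglobin and haemopexin genes, the transferrin gene tfa was well detected. It was at 29.4, 29.3 and 26.7 CPM in WT sham and at 203, 245 and 250.3 CPM in WT 7dpa. It was at 77.3, 82.5 and 83.3 CPM in mvp sham and at 286, 281 and 293 CPM in mvp 7dpa. No 2 groups overlapped, and the order was WT sham, mvp sham, WT 7dpa and mvp 7dpa. In wild type the mean rose 8.18-fold, from 28.4 ± 1.53 to 233 ± 26.2 CPM (SD, n = 3), with a log2 fold change of 3.03 ± 0.09 (edgeR adjusted p = 3.96e-11). In the mutant it rose 3.54-fold, from 81.0 ± 3.22 to 287 ± 6.17 CPM, with a log2 fold change of 1.82 ± 0.08 (edgeR adjusted p = 2.48e-08). The responses differed by -1.21 ± 0.12 on the log2 scale (edgeR adjusted p = 5.54e-06). Between the sham groups the mutant was higher by 1.51 ± 0.08 (edgeR adjusted p = 1.19e-08). At 7dpa the mutant was higher by 0.30 ± 0.08 (edgeR adjusted p = 0.0189), or 0.19 without WT 7dpa replicate 1, a difference that no longer passed without any 1 of the mvp 7dpa libraries (edgeR adjusted p = 0.0781, 0.0647 and 0.0895), in a fit of the 7dpa groups alone (edgeR adjusted p = 0.101) or with scaling by library totals (edgeR adjusted p = 0.0956).

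The summed markers of the epicardium and fibroblasts were also lowest in WT sham. Of the 10 genes, 9 were higher at 7dpa in each genotype, but in mvp sham 6 were higher and 3 lower than in WT sham. They summed to 383 to 434 CPM in WT sham, 1062 to 1095 CPM in mvp sham, 2480 to 2582 CPM in mvp 7dpa and 2218 to 3613 CPM in WT 7dpa. In WT 7dpa the highest sum was in replicate 1, which had the lowest tfa level, 0.818 times the mean of the other 2 libraries. The part of these cells in the tfa values was not tested. Endothelial markers (8 genes) summed to 393 to 444, 424 to 456, 573 to 589 and 519 to 547 CPM in WT sham, WT 7dpa, mvp sham and mvp 7dpa. Neutrophil markers (3 genes) summed to 43.0 to 52.8, 70.3 to 126.8, 52.9 to 59.6 and 81.7 to 91.9 CPM in the same order.

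**Figure D3:**
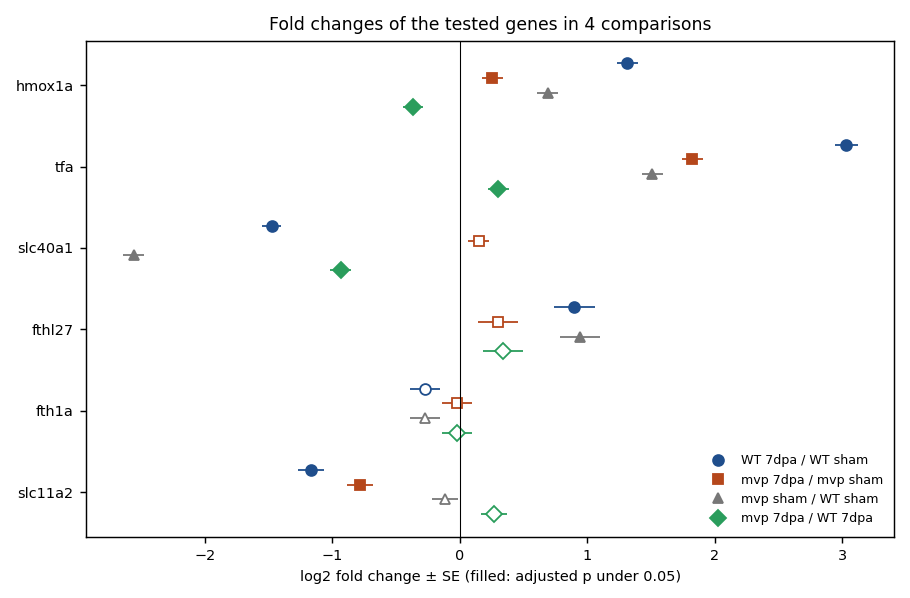
Log2 fold change with its SE from edgeR for 6 of the tested genes in 4 comparisons, filled where the adjusted p was under 0.05, with hamp left out because its sham groups were at 0 or 1 count. For slc40a1 the wild-type response lies at -1.48, the mvp response at 0.15 and the difference between sham groups at -2.56, and for tfa they lie at 3.03, 1.82 and 1.51.

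The direction of the smallest changes depended on scaling, and the large ones did not. TMM factors were 0.854 to 0.912 in the sham libraries and 1.087 to 1.185 in the 7dpa libraries. With library totals alone, the median log2 fold change of all genes was 0.399 in the wild-type response and 0.293 in the mvp response, so the TMM values above are relative to the bulk of genes. That scaling gave 8353 genes higher and 2042 lower in wild type, where TMM gave 5243 and 4619, and 5455 and 738 in the mutant, where TMM gave 2150 and 2222. Of the member values it reversed 2, both of fth1a as given above, and 1 no longer passed, that of tfa between genotypes at 7dpa. It brought 3 past the threshold, among them the mvp responses of fthl27, at 0.57 (edgeR adjusted p = 0.0212), and slc40a1, at 0.42 (edgeR adjusted p = 0.00388).

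Among the members themselves, the levels of hmox1a and tfa had a Pearson r of 0.919 over the 12 libraries on the log2 CPM scale. slc11a2 and hamp had an r of -0.909, and fthl27 and slc40a1 one of -0.859. These values describe 12 libraries that fall into 4 groups and share their scaling, and most of the spread lies between the groups. The genes whose log2 CPM was most like that of each member over the same libraries were tspan36 (r = 0.993), marco (0.986) and ELOVL1 (0.986) for hmox1a, where marco is a scavenger receptor of macrophages and was 1 of the macrophage markers. For tfa they were si:ch211-198c19.3 (0.995), nppal (0.994) and SOST (0.99). For slc40a1 they were FGD4 (0.996), cited4b (0.992) and FZD8 (0.991), and for fthl27 HSPA5 (0.996), which encodes the chaperone BiP of the endoplasmic reticulum, SLC25A25 (0.991) and syncripl (0.989). For slc11a2 they were LMO7 (0.991), PPME1 (0.986) and CLSTN1 (0.986), for hamp psmb13a (0.976), btr20 (0.971) and si:dkey-97i18.5 (0.969), and for fth1a si:dkeyp-79b7.13 (0.955), cox6b2 (0.955) and GLDC (0.949).

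The wider pathway was read from 7 lists with 73 matched genes other than the members, of which 61 could be tested. In the wild-type response 14 of them were higher and 16 lower, 49.2% in all beside 59.4% of all tested genes, with a median log2 fold change of -0.03. In the mvp response 7 were higher and 9 lower, or 26.2% beside 26.3%. Between the sham groups 18 were higher and 13 lower in the mutant, or 50.8% beside 49.5%, and at 7dpa 7 and 8, or 24.6% beside 19.5%. The responses of the genotypes differed for 16, or 26.2% beside 35.0%, of which 5 had a higher and 11 a lower log2 fold change in the mutant. Without WT 7dpa replicate 1, 37, 29, 42, 21 and 32 of them passed in the 5 comparisons in turn. The shares of all genes were then 67.0%, 41.2%, 59.2%, 34.9% and 49.9%. The lists were not tested as such, and the values that follow are those of single genes. For each list its share of calls is given, to be read beside the 59.4% and 26.3% of all genes in the wild-type and mvp responses.

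In the uptake of transferrin-bound iron, tfr1b, a transferrin receptor, was at 56.6, 55.3 and 61.9 CPM in WT sham and 126, 116 and 117.4 CPM in WT 7dpa. In the mutant it was at 112.6, 112.6 and 112.0 CPM after sham surgery and 117, 121 and 108 CPM at 7dpa. WT sham lay below the other groups, and mvp 7dpa overlapped with both mvp sham and WT 7dpa. tfr1b rose in wild type by 1.05 ± 0.07 (edgeR adjusted p = 5.1e-08), and its response was smaller in the mutant by a difference of -1.01 ± 0.10 (edgeR adjusted p = 4.94e-06). The ferric reductase genes steap4 and cybrd1 rose in wild type as well, by 1.26 and 1.01, with differences between the responses of -0.87 and -0.66. In steap4, WT 7dpa replicate 1 was at 149.8 CPM beside 240.5 and 234 CPM. Of the 8 tested genes for uptake and mitochondrial import, 3 were higher and 3 lower in wild type (75.0%), the latter being tfr1a (-0.68), the zinc and iron carrier slc39a14 (-0.98) and the mitoferrin slc25a28 (-0.34). In the mutant 2 passed (25.0%), both lower, slc25a28 (-0.42) and the ferritin autophagy receptor ncoa4 (-0.35).

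Of 6 tested genes of iron sensing, hepcidin control and ferroxidases, 2 passed in wild type (33.3%), both higher, and 4 in the mutant (66.7%), 2 higher and 2 lower. hephl1a, a homologue of the ferroxidases hephaestin and ceruloplasmin, had the largest log2 fold change of them in wild type. It was at 41.9, 40.8 and 43.7 CPM in WT sham and 96.7, 112.3 and 112.1 CPM in WT 7dpa. It was at 79.8, 73.2 and 74.5 CPM in mvp sham and 89.2, 90.4 and 84.4 CPM in mvp 7dpa. As with hmox1a, no group overlapped with the next in the order WT sham, mvp sham, mvp 7dpa and WT 7dpa. The wild-type log2 fold change was 1.35 ± 0.07 (edgeR adjusted p = 1.08e-08), and the responses differed by -1.13 ± 0.10 (edgeR adjusted p = 3.37e-06). bmp6, which induces hepcidin in the mammalian liver, rose in the mutant from 1.86 to 5.03 CPM, a log2 fold change of 1.43 ± 0.19 (edgeR adjusted p = 0.000155), and had means of 3.07 and 3.98 CPM in wild type, where it did not pass. The responses differed by 1.06 (edgeR adjusted p = 0.00785). ireb2, an iron regulatory protein, rose in wild type by 0.50, and the difference between responses was -0.52 (edgeR adjusted p = 0.0115). In the mutant aco1, the other iron regulatory protein, was lower at 7dpa by -0.63 and fbxl5, which has iron regulatory protein 2 degraded, by -0.31.

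Of 9 tested regulators of hmox1, 3 were higher and 3 lower in wild type (66.7%), and 2 passed in the mutant (22.2%), both lower. maff, a small Maf partner of Nrf2 and Bach1, was at 7.79, 8.30 and 7.16 CPM in WT sham and 22.7, 23.5 and 26.0 CPM in WT 7dpa. It was at 24.7, 25.6 and 25.6 CPM in mvp sham and 24.8, 24.7 and 26.7 CPM in mvp 7dpa. WT sham was below the other 3 groups, which overlapped. maff rose by 1.63 ± 0.09 in wild type (edgeR adjusted p = 8.04e-09), and the responses differed by -1.63 ± 0.12 (edgeR adjusted p = 4.34e-07). nfe2l2a, the gene of Nrf2, rose by 0.74, and nfe2l2b, at 2 or 3 counts per WT sham library and 6 to 11 per WT 7dpa library, was also called higher. The genes of Keap1, which holds Nrf2 down, were lower, keap1b by -0.76 and keap1a by -0.24, as was bach1b by -0.69. bach1a, a haem-binding repressor of hmox1, was lower at 7dpa in the mutant by -0.74 (edgeR adjusted p = 0.00155), from a mean that was higher by 0.58 than in wild type after sham surgery.

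Of the other ferritin copies, 4 could be tested, of which 2 were higher and 1 lower in wild type (75.0%) and 2 higher in the mutant (50%). Their names place them in the same family as fthl27 and fth1a, and similarity of sequence was not measured. Reads shared between copies could have been split or lost in counting, so the values of all of them, fthl27 and fth1a included, are uncertain. fthl28 was at 6.71, 6.81 and 6.28 CPM in WT sham and 11.6, 19.0 and 15.3 CPM in WT 7dpa, and in the mutant at 2.72, 3.23 and 3.38 CPM and 5.89, 5.90 and 5.27 CPM. It rose in both genotypes, by 1.21 and 0.87, and was lower in the mutant both after sham surgery (-1.08) and at 7dpa (-1.43), the reverse of fthl27 after sham surgery. fthl31 had means of 5.21 and 6.34 CPM in wild type and 0.975 and 1.98 CPM in the mutant, with genotype differences of -2.40 and -1.68. fthl29 had only 1 to 4 counts per WT sham library and 18 to 32 per WT 7dpa library, beside 10 to 16 in mvp sham and 12 to 21 in mvp 7dpa. fth1b fell in wild type by 0.45 on the log2 scale.

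Haem breakdown beyond hmox1a and haem transport gave 2 genes higher and 4 lower of 12 in wild type (50%), and 1 higher and 1 lower in the mutant (16.7%). The constitutive haem oxygenase hmox2a was lower in both, by -0.79 and -0.51, a direction opposite to that of hmox1a. Of the enzymes that turn biliverdin into bilirubin, blvra was lower in wild type (-0.84) with a response that differed by 0.81, and blvrb was higher in the mutant (0.55). The haem exporter gene flvcr1 had 3, 14 and 5 counts in WT sham and 20, 38 and 51 in WT 7dpa beside 31 to 33 in mvp sham and 22 to 41 in mvp 7dpa, and its responses differed by -2.14 (edgeR adjusted p = 0.0123). FLVCR2 (ENSDARG00000031506) rose by 1.84 in wild type, with WT 7dpa replicate 1 at 47 counts and the other 2 libraries at 126 and 161. SLC48A1 (ENSDARG00000026907), a haem importer, and the transporter gene abcg2a were the other 2 that were lower in wild type.

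Of 11 tested haem synthesis genes, 1 was higher and 2 lower in wild type (27.3%), among them cpox (0.63) and alas1 (-0.33), the first enzyme of the pathway. In the mutant 2 were higher, among them uros (0.41), and 1, alas1, was lower (-0.30), again 27.3%. The responses differed for cpox (-0.70) and uros (0.59). Of 11 iron-sulfur cluster genes, 1 was higher in wild type and 3 were lower (36.4%), the latter being the ISCU scaffold copies (ENSDARG00000026582, -0.72, and ENSDARG00000035596, -0.58) and the frataxin gene fxn (-0.63). For fxn, WT 7dpa replicate 1, at 10.7 CPM, lay within the WT sham range of 10.3 to 12.6 CPM, and replicates 2 and 3 were at 5.32 and 6.30 CPM. Of the 11 genes, 1 passed in the mutant (9.09%), ISCU (ENSDARG00000035596, -0.39).

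**Figure D4:**
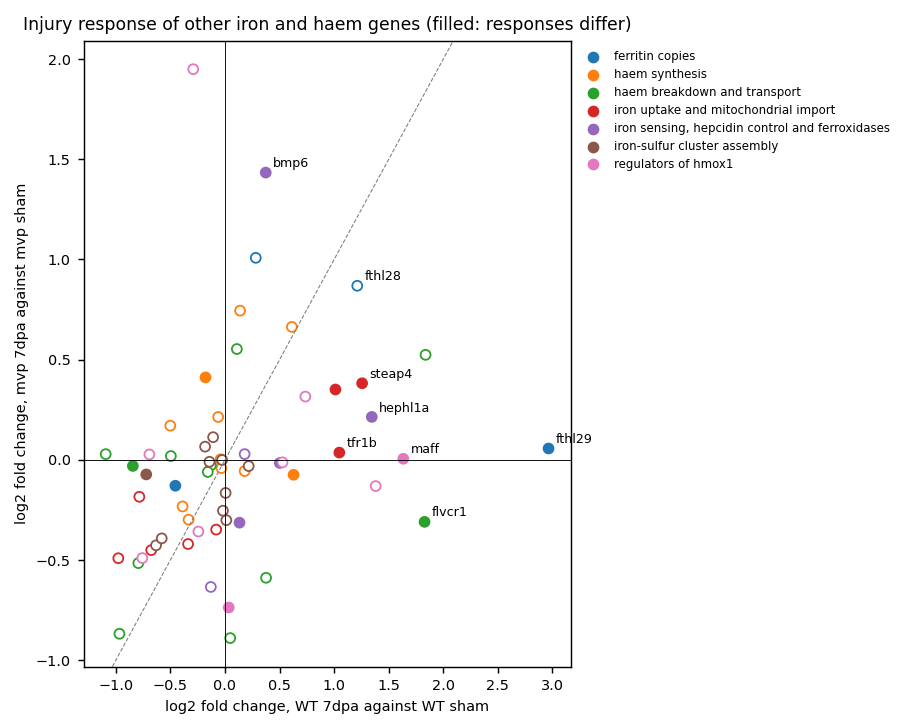
Log2 fold change after injury in the mvp mutant against that in wild type for the 61 other tested iron and haem genes, coloured by list and filled where the responses of the genotypes differed at an adjusted p under 0.05, with a dashed line of equal change. tfr1b, hephl1a and maff lie at 1.05, 1.35 and 1.63 in wild type and near 0 to 0.21 in the mutant, bmp6 lies above the line at 1.43 in the mutant, and fthl29 and flvcr1 rest on few counts in WT sham. Both axes share no libraries with each other.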

How the data were processed

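Groups and replicate numbers came from the sample labels. Total RNA of ventricles was made into libraries with a low-input kit. Per the submitters' notes and the methods, the authors used bcl2fastq, FastQC 0.11.8, HISAT2 2.1.0 on the GRCz11 build, SAMtools 1.10 and featureCounts 1.6.0, and deposited whole-number counts of reads per gene, not normalized. Strand setting and annotation release are not given in the sources used here, so reads of overlapping or near-identical genes may be misplaced. The deposited identifiers were named through a gene name table (29201 of 32520 matched) and RefSeq cross-references. No coordinates or sequences were used.

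In R 4.3.3, edgeR 4.0.16 (filterByExpr by group, TMM, quasi-likelihood fit of a mean per group to all 12 libraries) gave each contrast. Benjamini-Hochberg adjustment ran over the 16604 genes that passed the filter, and a gene was called at an adjusted p under 0.05. The authors used DESeq2, which was an alternative here. The SE is the log2 fold change divided by the square root of F. Pearson r was taken on log2 CPM (prior count 2). A group at or under 3 counts per library was set to that floor. Scripts were tested on simulated data. No 2 libraries were identical, and every replicate pair differed by more than sampling noise. Depth of 21356163 to 26684651 counts limits genes with a few counts.

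The members, the 7 pathway lists and the 7 marker lists were chosen with earlier results of these data known. Named are all members, at most 3 called genes of largest change per pathway list in each injury response and in their difference, and the 3 genes most correlated with each member. Genes outside this rule (tfr1a, slc39a14, keap1a in wild type, slc25a28 in wild type, nfe2l2a, bach1b, hmox2a and blvra in wild type, abcg2a, and all genotype differences of pathway genes) were named after their values were seen. Some called genes of the pathway lists are not reported here. Alternatives were the size factors and the Wald test of DESeq2 1.42.0, no filter on low counts, only the groups compared, a replicate block, removal of haemoglobin genes, limma 3.58.1 with a weight per group, a minimum log2 fold change of 1 and leaving out each library. Removal of haemoglobin genes left 16602 tested genes in place of 16604, and genes without a match, such as hbba1 and hbba2, could not be removed. Scaling by library totals alone was added after the data were seen.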

Additional observations from a re-analysis of the deposited data

Results flagged for a closer look

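Leaving hamp aside, the injury responses of the genotypes differed for 3 of the other 6 tested genes by the test of the difference itself. The share over all tested genes was 35.0%. The log2 fold change of hmox1a was -1.06 in the mutant relative to that in wild type, that of tfa was -1.209 and that of slc40a1 was 1.624 (edgeR adjusted p = 1.74e-05, 5.54e-06 and 3.05e-07). All 3 differences passed in every alternative that was run.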

How the results depend on the processing

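Of 20 calls of a member in a comparison, 2 of them of hamp, 18 passed the threshold with the same direction in every alternative fit that tested the gene. The exceptions were hmox1a in the mvp response and tfa between genotypes at 7dpa. The 18 include both calls of hamp, which had to differ, as given above, and add no support. The minimum log2 fold change of 1 is not a fit of its own, is left out of these counts and is given below. Several of the 18 calls, such as slc11a2 in the mvp response (-0.78), did not reach it. Over all 691 values of members under an alternative, 650 kept direction and side of the threshold, 22 newly passed, 11 no longer passed and 8 reversed. The reversals were of small, uncalled values. fth1a reversed with library totals in the wild-type response (0.1137) and the mvp response (0.2492), and leaving out a library gave -0.068 to 0.0089 in the mvp response and -0.12 to 0.13 between genotypes at 7dpa. The difference of hamp at 7dpa turned to 0.1443 with a replicate block and 0.524 with limma weights, and leaving out a library gave -0.66 to 0.51. The cause was not tested.

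With a log2 fold change of at least 1 also required, the members called (hamp included) were 2 in the mvp response, 2 between sham groups and 0 at 7dpa, and the other iron and haem genes called were 10 in wild type, 2 in the mutant, 10 between sham groups, 6 at 7dpa and 6 for the difference between responses. The share of all genes that reach this minimum is not given here. limma weights gave 28 of the other genes in the mvp response and 9 at 7dpa, beside 6831 and 2079 of all 16604 tested genes. Fits of only the groups compared gave 29 and 8, beside 7072 of 15537 and 1403 of 16012 genes. The fit used above called 4372 and 3246 of all 16604 genes in these comparisons. Leaving out 1 library gave 6 to 7 members in wild type, 3 to 5 in the mutant, 4 to 5 between sham groups, 2 to 4 at 7dpa and 3 to 6 for the difference. In wild type and in the mutant, hamp was among them in every such fit. Of the other genes 24 to 37, 11 to 29, 25 to 42, 10 to 21 and 13 to 32 were called in turn. All high ends were reached without WT 7dpa replicate 1, where 67.0%, 41.2%, 59.2%, 34.9% and 49.9% of all genes passed in turn. Those of the members in wild type and between sham groups were also reached without some other single libraries, through the calls of fth1a given above.

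The labels do not say whether equal replicate numbers pair the samples. Deviations from group means of libraries with the same number correlated at -0.0489 to 0.06. These values show no large shared deviation, but with so few libraries per group they cannot decide whether samples were paired. The replicate block gave 3 members in the mvp response in place of 4 (hamp included in both), because hmox1a (0.25) had an adjusted p of 0.0507 in edgeR. With the block 4145 of all 16604 tested genes were called in that response, in place of 4372.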
